A study of Mus musculus with 4 samples.

Results

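The 8 genes described here, Gja4, Gja5, Gja1, Efnb2, Ephb4, Nr2f2, Aplnr and Unc5b, concern artery and vein identity and were chosen by name out of the 32285 genes measured. They were followed in single endothelial cells to see which of them were detected in the same cell and which were rarely found together. The 4 libraries are 10x single-cell transcriptomes of CD31+ cells from the aorta-gonad-mesonephros (AGM) region of C57BL/6J mouse embryos at embryonic day 11.5. The cells had been stained with TMRM, a dye taken up according to mitochondrial membrane potential, and sorted into a low fraction (MMPlow, 2 libraries) and a high fraction (MMPhigh, 2 libraries). All groups share the strain, stage and CD31 gate, and the labels name no allele or drug treatment. The labels do not say that the 2 libraries of a fraction came from separate embryos. The p-values between the fractions therefore measure only the spread between these libraries, which may be technical.

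Arteries and veins carry different surface and junction proteins from early in development. Ephrin B2 (Efnb2), a membrane-bound ligand, marks arterial endothelium, and its receptor EphB4 (Ephb4) marks venous endothelium. Gja4 and Gja5 encode connexin 37 and connexin 40, gap junction proteins of arterial endothelium, and Unc5b encodes a netrin receptor found in arteries and sprouting tip cells. Nr2f2 encodes COUP-TFII, a nuclear receptor that promotes venous fate and represses Notch signalling. Aplnr encodes the apelin receptor, a marker of venous and angiogenic endothelium. Gja1 encodes connexin 43, a gap junction protein of many cell types, and was placed on neither side. The artery side was therefore Gja4, Gja5, Efnb2 and Unc5b, and the vein side Nr2f2, Aplnr and Ephb4. In the AGM, haematopoietic cells arise from arterial endothelium of the dorsal aorta.

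The positions below are those of the GENCODE annotation on GRCm38. On the artery side, Gja4 (ENSMUSG00000050234) lies at chr4:127311421-127314039, Gja5 (ENSMUSG00000057123) at chr3:96904693-97077416, Efnb2 (ENSMUSG00000001300) at chr8:8617434-8661242 and Unc5b (ENSMUSG00000020099) at chr10:60762593-60831581. On the vein side, Nr2f2 (ENSMUSG00000030551) lies at chr7:70351944-70366735, Aplnr (ENSMUSG00000044338) at chr2:85136225-85139923 and Ephb4 (ENSMUSG00000029710) at chr5:137350109-137378669. Gja1 (ENSMUSG00000050953) lies at chr10:56377330-56402513. All 8 are protein-coding genes, and UMIs (unique molecule counts) were assigned to whole genes.

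After filtering, 42066 cells were retained, of which MMPlow 1 gave 15813, MMPlow 2 gave 18442, MMPhigh 1 gave 4403 and MMPhigh 2 gave 3408. Median UMIs per retained cell were 3087, 3641, 3685 and 23619.5, so MMPhigh 2 stood apart in depth over all cells. Between 14 and 369 barcode sequences were shared by any 2 libraries, counted over all deposited barcodes before filtering. Endothelial-like cells, named from 12 markers such as Cdh5, Pecam1 and Cldn5, numbered 7736 (48.9%) and 8743 (47.4%) in MMPlow but 15 (0.341%) and 13 (0.381%) in MMPhigh. All 12 markers were detected in the endothelial-like cells of each library. In MMPhigh 1, 58.7% of the retained cells stayed without a class name, with a median of 2889 UMIs. In most named classes both MMPhigh libraries were deeper than MMPlow. Endothelial-like medians were 3168 and 3648 UMIs in MMPlow against 14044 and 20868 in MMPhigh. Macrophage-like medians were 2880.5 and 3344 against 16329 and 23870.5. Muscle progenitor-like cells of MMPhigh 1, at 3450, were shallower than those of MMPlow, at 4591.5 and 4695.

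In endothelial-like cells of MMPlow, each member was compared with its own level elsewhere, because levels of different genes are not per length. To compare detection at one depth, each cell was thinned at random to 2000 UMIs. On the artery side, Efnb2 was then detected in 26.0% and 26.9% of endothelial-like cells of MMPlow 1 and 2, Unc5b in 10.0% and 9.63%, Gja4 in 6.79% and 7.24%, and Gja5 in 3.18% and 3.49%. On the vein side, Aplnr was detected in 25.7% and 24.4%, Nr2f2 in 21.1% and 22.9%, and Ephb4 in 20.1% and 20.1%, and Gja1 was detected in 10.5% and 11.1%. Every member was thus undetected in most endothelial-like cells at this depth. Without thinning the shares were larger, from 4.61% and 5.32% for Gja5 to 41.6% and 43.2% for Aplnr, at median depths of 3168 and 3648 UMIs. Macrophage-like cells of the same libraries, which should lack these genes and had median depths of 2880.5 and 3344 UMIs, gave lower thinned shares. These were 2.00% and 1.77% for Gja4, 1.22% and 0.608% for Gja5, 2.00% and 0.719% for Unc5b, and 9.28% and 6.42% for Aplnr. Their Efnb2, Nr2f2, Ephb4 and Gja1 shares lay between 2.99% and 6.19%. All 8 members were therefore detected above that background in endothelial-like cells, with Aplnr carrying the highest background.

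Artery-side and vein-side members were detected together less often than independence predicted. Co-detection was measured in the thinned endothelial-like cells of each MMPlow library as a log2 odds ratio, which is 0 where 2 genes are detected independently and negative where cells with both are too few. All 12 artery-vein pairs had negative log2 odds ratios in both libraries, with a median over pairs of -0.58. Among 9127 possible partner genes, the share negative in both libraries ran from 25.3% for Ephb4 and 26.7% for Nr2f2 to 35.5% for Efnb2, with 31.7% for Aplnr, 33.2% for Gja5, 34.7% for Gja4 and 35.3% for Unc5b. Cells are not replicates, so these ratios are descriptions of 2 libraries and carry no p-value.

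Over all endothelial-like cells, the lowest log2 odds ratios were those of the connexin Gja5 and the apelin receptor Aplnr. MMPlow 1 held 34 cells with both against 63.1 predicted, and MMPlow 2 held 34 against 74.5. Their log2 odds ratios were -1.12 and -1.38. Aplnr was found in 13.8% and 11.1% of the Gja5 cells, near its macrophage-like shares of 9.28% and 6.42%, so whether cells with both UMIs express both genes was not tested. Gja4 and Nr2f2 were found together in 67 cells against 111 predicted and in 79 against 145, with log2 odds ratios of -0.92 and -1.11. In both libraries, then, a cell with Gja4 carried Nr2f2 less often, in 12.8% and 12.5% of Gja4 cells against 21.8% and 23.7% of cells without Gja4.

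The other pairs with Aplnr and Nr2f2 followed the same direction. Gja4 and Aplnr had log2 odds ratios of -0.88 and -1.04. Unc5b had values of -0.90 and -0.96 with Nr2f2 and of -0.88 and -0.95 with Aplnr. The netrin receptor was thus separated from both vein genes about as far as Gja4 was. Efnb2 was closer to independence, at -0.47 and -0.38 with Nr2f2 and -0.36 and -0.55 with Aplnr. Gja5 and Nr2f2 differed most between the libraries, at -0.42 and -0.99.

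The ligand and receptor pair Efnb2 and Ephb4 lay close to independence. Both were detected in 367 cells of MMPlow 1 against 405 predicted and in 448 cells of MMPlow 2 against 471. The log2 odds ratios were -0.23 and -0.12, and the mean over the libraries turned positive without thinning, at 0.0171, with cells thinned to 4000 UMIs, at 0.12, and with detection set at 2 UMIs, at 0.13. The other pairs of Ephb4 were also near 0, with -0.34 and -0.17 for Gja4, -0.42 and -0.12 for Gja5, and -0.12 and -0.44 for Unc5b. Weak values of this size in sparse counts are not read as clear separation. For Ephb4, however, most of them were low. Among its 9127 partners, Unc5b, Gja5 and Gja4 ranked 232, 264 and 324 from the lowest by mean, and Efnb2 ranked 787. With Gja5, the mean was 0.33 in cells thinned to 4000 UMIs.

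**Figure D1:**
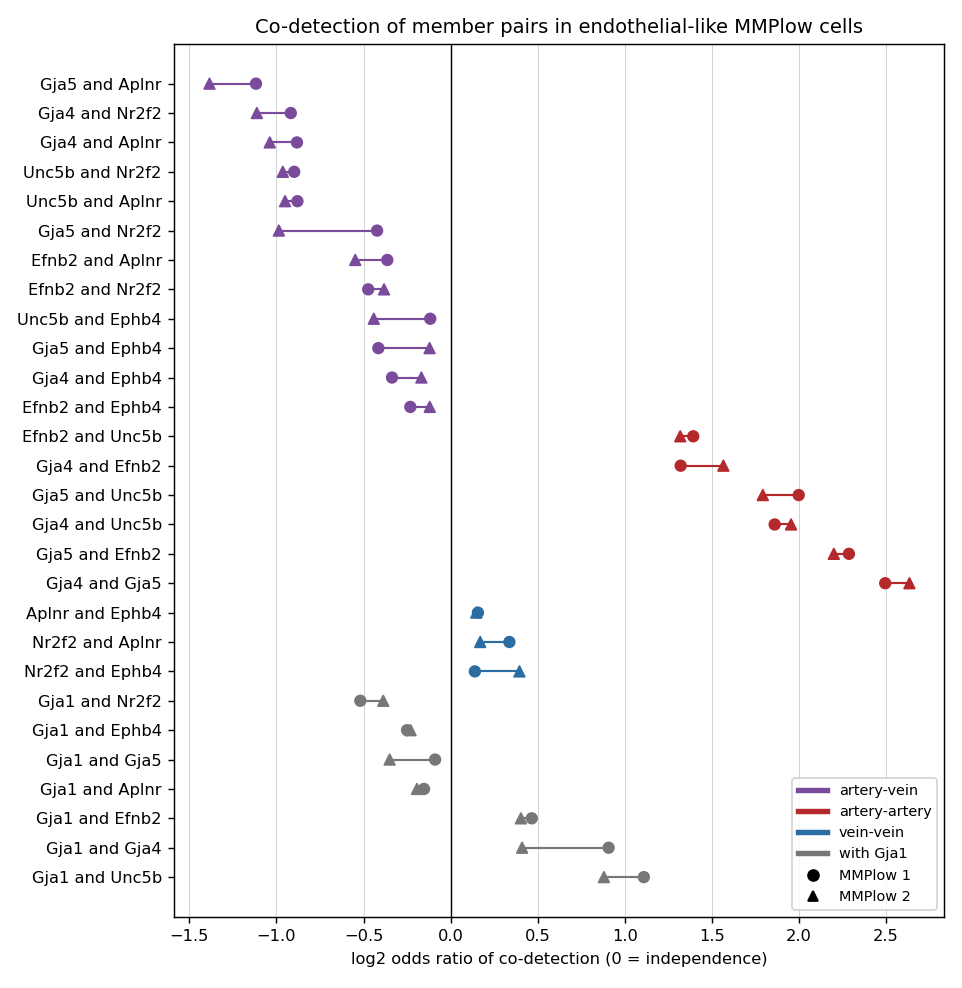
Log2 odds ratio of co-detection (horizontal axis, 0 marks independence) for the 28 pairs of members in thinned endothelial-like cells, with MMPlow 1 as circles and MMPlow 2 as triangles joined by a line. All 12 artery-vein pairs lie left of 0, from -1.38 upwards, and all 9 same-side pairs lie right of 0, with the artery-artery pairs farthest out, up to 2.63.

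Artery-side members were detected together more often than independence predicted. All 9 same-side pairs had positive log2 odds ratios in both libraries, while the share of the 9127 partner genes positive in both was 29.8% for Gja4, 30.4% for Gja5, 35.2% for Efnb2, 31.3% for Unc5b, 30.9% for Nr2f2, 30.2% for Aplnr and 34.9% for Ephb4. The median was 1.90 over the 6 artery-artery pairs and 0.25 over the 3 vein-vein pairs.

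The arterial connexins were the most tightly joined pair. Gja4 and Gja5 were found together in 66 cells of MMPlow 1 against 16.7 predicted and in 91 cells of MMPlow 2 against 22.1, with log2 odds ratios of 2.50 and 2.63. Of the cells with Gja4, 12.6% and 14.4% also had Gja5, against 2.50% and 2.64% of cells without Gja4. Gja5 was in turn found with Efnb2 in 61.8% and 61.3% of its cells, against 24.8% and 25.6% of cells without Gja5. Gja5 was the rarer gene, and most of its cells carried the artery ligand.

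The 250 bases before the start of each of these connexin genes, from RefSeq on GRCm38.p6, are printed because Gja4 and Gja5 were the pair with the highest log2 odds ratios. The Gja4 bases lie at chr4:127314040-127314289 on the minus strand and the Gja5 bases at chr3:97032152-97032401 on the plus strand, inside the span that GENCODE gives Gja5. Capitals mark an 11-base run found in both, TGGGATACCGG, which starts 151 bases before the Gja4 start and 41 bases before the Gja5 start, and a match to ACAAT, the core bound by SOX factors, 86 bases before the Gja4 start.
Gja4: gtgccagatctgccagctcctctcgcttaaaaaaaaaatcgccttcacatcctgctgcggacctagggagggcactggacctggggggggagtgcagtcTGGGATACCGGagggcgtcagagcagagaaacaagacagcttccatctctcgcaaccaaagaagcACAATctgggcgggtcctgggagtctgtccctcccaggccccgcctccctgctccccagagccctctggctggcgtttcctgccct
Gja5: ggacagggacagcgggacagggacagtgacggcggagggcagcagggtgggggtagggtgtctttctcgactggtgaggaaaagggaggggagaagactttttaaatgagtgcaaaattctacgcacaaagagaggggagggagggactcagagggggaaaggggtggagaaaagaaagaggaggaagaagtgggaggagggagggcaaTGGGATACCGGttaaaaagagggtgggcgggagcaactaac
The shared run was present on either strand in 4 of 32851 windows of the same length (0.0122%). A longer run of 14 bases shared by Gja1 and Nr2f2, whose log2 odds ratios were negative, was as rare (4 windows). The Gja4 and Gja5 run was noticed after the co-detection values had been seen, and the other pairs of the 7 members with a sequence shared runs of 7 to 14 bases. Windows were also searched on both strands for 4 short motifs. TGGGAA, bound by the Notch factor RBPJ, was in 21.6% of all windows. The SOX core ACAAT was in 27.7%. A nuclear receptor motif, AGGTCA, was in 14.0%. The GATA factor motif AGATAA was in 9.99%. None of these searched motifs overlapped another, and the only other match among the members was AGATAA 135 bases before the start of Gja1. No entry for Aplnr was matched.

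The remaining artery-artery pairs were also far above 0. Gja4 and Unc5b had log2 odds ratios of 1.86 and 1.95, and Gja5 and Unc5b of 2.00 and 1.79. Gja4 and Efnb2 had 1.32 and 1.57, and Efnb2 and Unc5b 1.39 and 1.32. The vein-side pairs were much weaker, at 0.34 and 0.17 for Nr2f2 with Aplnr, 0.14 and 0.40 for Nr2f2 with Ephb4, and 0.16 and 0.15 for Aplnr with Ephb4. These vein-side values are no larger in size than those of Ephb4 with the artery genes and are not read as clear co-detection. Among 9127 partners of Nr2f2, Ephb4 ranked 397 and Aplnr 447 from the highest by mean, while Ephb4 ranked 1161 for Aplnr. The vein-vein means, 0.15 to 0.27, were 0.47 to 0.85 without thinning and 0.93 to 1.42 with at least 2 UMIs. They were 0.01 to 0.21 when thinned to 4000 UMIs and 0.09 to 0.16 within subclusters, which are described below. The log2 odds ratios of the artery-artery pairs were thus far above those of the vein-vein pairs.

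Gja1 was detected with some artery genes more often than independence predicted, while its relation to Gja5 changed with the setting. Its log2 odds ratios were 1.11 and 0.88 with Unc5b, 0.91 and 0.41 with Gja4 and 0.47 and 0.40 with Efnb2. With Gja5 they were -0.09 and -0.35, and the mean turned to 0.0665 with another random thinning. Connexin 43 was thus found beside connexin 37 more often than independence predicted, and no clear relation to connexin 40 was seen. With the vein genes its values were -0.52 and -0.39 for Nr2f2, -0.25 and -0.23 for Ephb4 and -0.15 and -0.19 for Aplnr, all of which turned positive on average without thinning.

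A cell with more artery members carried fewer vein members. Of endothelial-like cells with none of the 4 artery members, 55.6% in MMPlow 1 and 56.3% in MMPlow 2 had at least 1 vein member. The share was 48.9% and 48.4% with 1 artery member, 36.6% and 38.2% with 2, and 35.2% and 29.3% with 3 or more. Aplnr and Nr2f2 changed most, with Aplnr going from 28.0% and 27.5% of cells with no artery member to 11.0% and 6.59% of cells with 3 or more, and Nr2f2 from 23.4% and 25.3% to 12.4% and 8.98%. Ephb4 was lower to a smaller extent, at 21.0% and 20.8% against 17.2% and 18.0%. Gja1 was higher, from 8.80% and 9.90% with none to 18.0% and 17.0% with 2, and stood at 16.6% and 14.4% with 3 or more. Nr2f2 in MMPlow 1 was at 10.8% with 2, below its share with 3 or more.

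**Figure D2:**
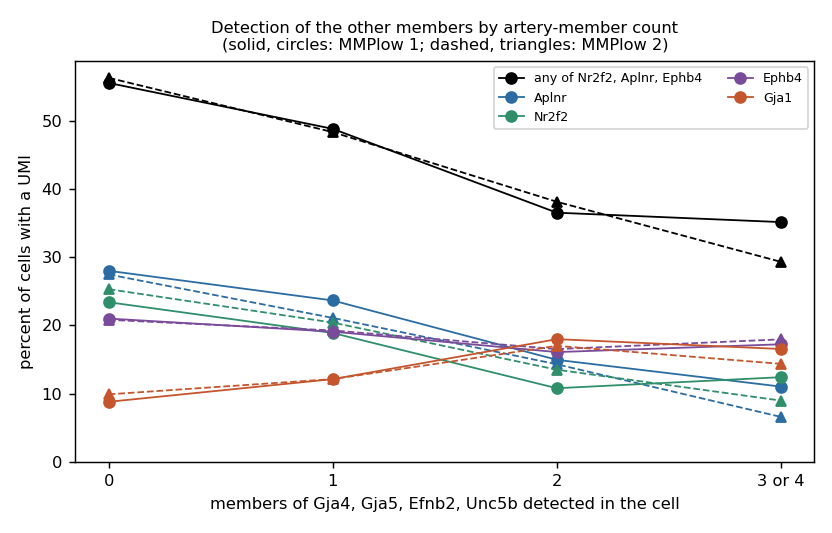
Percent of thinned endothelial-like cells with a UMI of each gene (vertical axis) against the number of artery members detected in the same cell (horizontal axis), with MMPlow 1 as solid lines and circles and MMPlow 2 as dashed lines and triangles. Aplnr and Nr2f2 are lower and Gja1 higher in cells with 3 or more artery members than in cells with none, though Gja1 peaks at 2 (18.0% and 17.0%) and Nr2f2 of MMPlow 1 is lowest at 2 (10.8%), while Ephb4 lies between 16.1% and 21.0%.

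Cells with a UMI of both sides were fewer than predicted. With the sides set by Gja4 or Gja5 against Nr2f2 or Aplnr, 192 cells of MMPlow 1 had both against 286 predicted, and 214 cells of MMPlow 2 had both against 350. These were 2.48% (95% exact interval 2.15 to 2.85, counting error only) and 2.45% (2.13 to 2.79) of endothelial-like cells. Cells with artery-side members alone numbered 513 and 633, with vein-side members alone 2950 and 3398, and with neither 4081 and 4498. The median doublet score of the cells with both was 0.0455 and 0.0419, between that of artery-side cells (0.0338 and 0.0333) and of vein-side cells (0.0504 and 0.0510). Of the cells with Gja4 or Gja5, 27.2% and 25.3% also had Nr2f2 or Aplnr. Macrophage-like cells of the same libraries, taken as background, had Nr2f2 or Aplnr in 13.3% and 10.1% and both sides in 0.322% and 0.277% of cells. The part of free RNA and of doublets in the cells with both was not tested. Without thinning, 449 and 620 cells had both, against 590 and 809 predicted. All 4 artery members without a vein member were found in 12 and 22 cells.

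In MMPhigh the endothelial-like cells were too few for ratios. Before thinning, Gja4 and Gja5 were found together in 1 of 15 and 1 of 13 cells, Efnb2 and Ephb4 in 5 and 10, and Gja5 with Aplnr or with Nr2f2 in none. A count of 0 in so few cells does not show that the pairs are absent.

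The artery members were concentrated in a small group of endothelial cells. Endothelial-like cells were clustered again with the 8 members left out of the clustering genes, which gave 6 subclusters. Subcluster 1, led by Pde3a, Sox6 and Dkk2 and with all 8 artery markers (Sox17, Hey1, Hey2, Dll4, Bmx, Cxcr4, Jag1 and Notch4) up, held 396 cells (5.12%) of MMPlow 1 and 499 (5.71%) of MMPlow 2 and is called artery-like here. In it Gja5 reached 282 and 281 CPM (summed UMIs scaled to a common total per library), against 3.77 to 12.2 CPM in the other 5. Gja4 reached 331 and 366 CPM against at most 64.0 elsewhere, Efnb2 602 and 624 against at most 242, and Unc5b 219 and 233 against at most 91.1. Of the endothelial-like cells with a Gja5 UMI at 2000 UMIs, 56.9% and 62.6% lay in the artery-like subcluster, so a large share lay outside it. Efnb2 and Unc5b had a second, lower level in subcluster 0, led by Mdga2 and Col15a1, at 229 and 242 CPM and 91.1 and 84.5 CPM. These contrasts describe clusters and have no test.

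Vein members were lowest in the artery-like subcluster. Each was at or near its highest level in subcluster 3, but elsewhere they differed. Nr2f2 stood at 39.3 and 35.8 CPM there, against 219 and 254 CPM in subcluster 3, led by Tll1, Slit3 and Egfem1, and 228 and 229 CPM in subcluster 5, led by Gata4, Stab2 and Oit3. Aplnr stood at 50.7 and 46.4 CPM in the artery-like cells, at 202 and 194 CPM in subcluster 3, and at 201 and 209 CPM in subcluster 2, led by the cell cycle genes Cdc20 and Ccnb2. In subcluster 5 Aplnr was low, at 70.0 and 69.0 CPM, although Nr2f2 was high there. Ephb4 was highest in subcluster 3, at 192 and 191 CPM, against 81.0 and 85.5 CPM in the artery-like cells. Subcluster 3 had 2 of 6 vein markers up and was left without a name. Gja1 was highest in subcluster 0, at 91.0 and 91.0 CPM, and not in the artery-like cells, at 63.0 and 78.8 CPM.

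**Figure D3:**
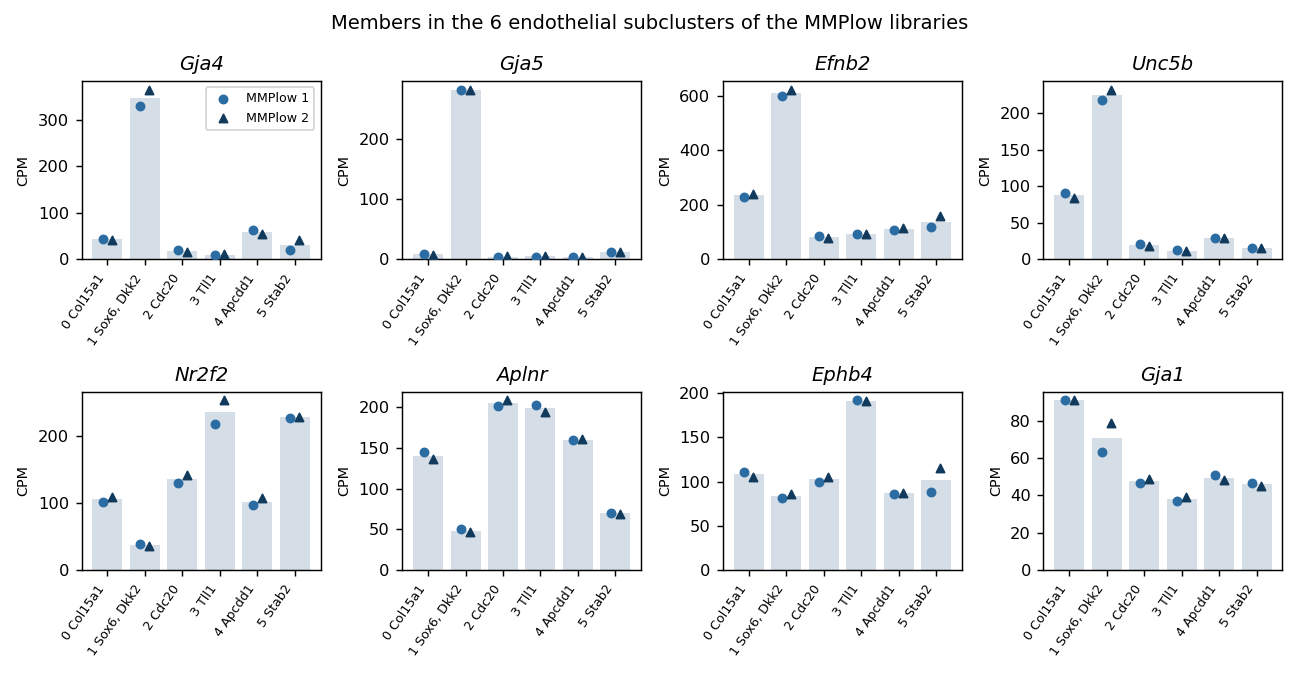
Summed level of each member in CPM (vertical axis, from 0, with its own scale in each panel) in the 6 endothelial subclusters (horizontal axis, with leading genes), MMPlow 1 as circles, MMPlow 2 as triangles, bars at their mean. Gja4, Gja5, Efnb2 and Unc5b are highest in subcluster 1, where Nr2f2 and Aplnr are lowest.

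The artery-like subcluster did not hold all artery-side cells. It contained 39.6% and 41.2% of the cells with Gja4 or Gja5 alone and 18.8% and 19.6% of the cells with both sides, and 51.3% and 52.3% of its own cells were artery-side. Co-detection was also computed within subclusters and combined as a Mantel-Haenszel odds ratio. By this measure, 7 of 12 artery-vein pairs stayed negative and 7 of 9 same-side pairs positive in both libraries. Gja4 and Gja5 were then at 0.23 and 0.47, and Gja5 and Nr2f2 at 0.40 and 0.08. Unc5b stayed negative with Aplnr, at -0.62 and -0.56, and with Nr2f2, at -0.50 and -0.51. Gja4 also stayed negative, at -0.45 and -0.64 with Nr2f2 and -0.47 and -0.61 with Aplnr, but Unc5b and Ephb4 were at 0.03 and -0.25. Gja5 and Aplnr, the lowest pair over all endothelial-like cells, were at -0.23 and -0.48. In each library that was smaller in size than the values of Unc5b and Gja4 with Nr2f2 or Aplnr. The connexin pair was thus far smaller inside subclusters than over all endothelial-like cells, as was Gja5 with Unc5b, at 0.44 and -0.13. Other artery pairs stayed above 0, with Gja4 and Unc5b at 0.96 and 1.06 and Gja5 and Efnb2 at 1.09 and 0.83. Subclusters were drawn from the same cells, so these values are descriptions.

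Members that took no part in setting the sides were compared between artery-side cells (Gja4 or Gja5 without Nr2f2 and Aplnr) and vein-side cells (the reverse). UMIs were summed per side and library and tested with edgeR's quasi-likelihood test with the library as a term. Efnb2 stood at 390 and 424 CPM in artery-side cells of MMPlow 1 and 2 and at 115 and 124 CPM in vein-side cells. Unc5b stood at 162 and 158 CPM against 27.0 and 26.5, and Gja1 at 94.3 and 95.9 CPM against 51.4 and 52.3. Ephb4 stood at 91.6 and 102 CPM against 120 and 126. The sums of the sides did not overlap for any of these 4 genes, as for 53.6% of all genes.

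Efnb2, Unc5b and Gja1 were higher in artery-side cells and Ephb4 was lower. The log2 change came to 1.76 (SE 0.05, adjusted p by edgeR = 2.15e-94) for Efnb2, 2.57 (SE 0.09, adjusted p by edgeR = 2.16e-80) for Unc5b and 0.86 (SE 0.09, adjusted p by edgeR = 2.14e-17) for Gja1. For Ephb4 it was -0.35 (SE 0.07, adjusted p by edgeR = 4.84e-05). All 4 were called, against 24.3% of 13941 genes tested. Ephb4 was the only member not called by DESeq2, with an adjusted p of 0.158, and the other edgeR settings gave adjusted p values from 2.76e-06 to 0.0435. Both sums of a library come from the same sort and the same run, and artery-side cells were shallower, at medians of 3002 and 3426 UMIs against 3333.5 and 3843.5. With the library as a term, the p-values of this split and of the reverse split below do not measure the spread between libraries. They compare cells of the same 2 libraries and are not replicated evidence. Co-detection of these members with the side genes in the same cells is given above, so this split is not separate support.

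Other artery genes were higher in artery-side cells, while vein genes were lower only in part. Of 22 other artery genes, 22 were higher, against 12.2% of all genes higher and 12.1% lower. Their median log2 change was 2.13 against -0.01 over all genes. The lists were chosen with earlier results of these data known, so counts from them are not independent support. The largest were Tmem100 (4.61), an ALK1 signalling target, Hey2 (4.58), a Notch target, Bmx (4.35), a kinase of arterial endothelium, and Ltbp4 (3.41), a matrix protein that binds latent TGF-beta. Of 16 vein genes, 15 were tested, 8 were lower, 6 were not called and 1 was higher, with a median of -0.38. Nrp2 (-1.56), a co-receptor for VEGF-C and semaphorins, and Stab2 (-1.03), a scavenger receptor, were lower. Vwf, which encodes a clotting glycoprotein made by endothelium and was listed with the veins, was higher (2.28). Of 22 ligands, receptors and relatives of the members, 16 were tested, 5 were higher and 3 lower, with a median of -0.15. Among them Apln, the ligand of the apelin receptor, was lower (-1.57), as was Flrt2 (-1.47), a ligand of Unc5 receptors, while Ntn4 (2.20), a netrin, and Efna1 (1.40), an ephrin, were higher. All of these values are log2 changes past an adjusted p by edgeR of 0.05.

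With the 8 members left out, the largest rises in artery-side cells among genes of at least 20 CPM on average were in Dkk2 (4.73), a secreted Wnt modulator, Tmem100, Bmx, Sox6 (4.27), a transcription factor, and Pde3a (4.18), a phosphodiesterase. Among the largest falls, by the same limits, were those in Lhx6 (-1.76), Egfem1 (-1.74), Pld5 (-1.71) and Tll1 (-1.69), a secreted protease.

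The reverse split, by Efnb2 without Ephb4 (1646 and 1900 cells) against Ephb4 without Efnb2 (1188 and 1305 cells), used the same libraries. Of its cells, 44.1% and 46.4% were also in the first split, and they were 36.1% and 36.9% of the first split's cells. Gja5 stood at 47.6 and 46.8 CPM in Efnb2 cells and 6.86 and 10.3 CPM in Ephb4 cells. Gja4 stood at 80.1 and 91.2 CPM against 26.1 and 34.5, and Unc5b at 96.6 and 96.1 against 36.1 and 31.8. Nr2f2 stood at 103 and 116 CPM against 147 and 178, and Aplnr at 139 and 130 against 178 and 170. The sums did not overlap for these members or for Gja1, as for 38.9% of all genes.

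All 6 members that did not set this split were called, against 11.2% of 13463 genes tested. The log2 changes were 2.42 (SE 0.14) for Gja5, 1.51 (SE 0.08) for Unc5b, 1.48 (SE 0.09) for Gja4 and 0.54 (SE 0.08) for Gja1, and -0.58 (SE 0.06) for Nr2f2 and -0.38 (SE 0.05) for Aplnr. The adjusted p values by edgeR ran from 3.98e-72 for Unc5b to 1.23e-10 for Gja1. Efnb2 and Ephb4 were close to independent in detection, and the sums of these cells differed in each of the other members. The co-detection of Efnb2 with these members in the same cells is given above, so this split is not separate support. The part of Ephb4 in these differences was not tested. The other artery genes had 20 of 22 higher (median 1.01), against 6.31% of all genes higher and 4.94% lower. The vein genes had 7 of 14 tested lower and 1 higher, again Vwf (0.84), with a median of -0.28. The limit given above for these lists holds here too. Of the ligands and relatives, 5 of 16 tested were higher and 2 lower (median 0.11, against -0.01 over all genes). Among genes of at least 20 CPM on average, with the members left out, Dkk2 (2.61), Pde3a (2.08), Sox6 (2.03), Prdm16 (1.87) and Abtb2 (1.75) had the largest rises, and Egfem1 (-1.57), Tll1 (-1.37), Lhx6 (-1.25), Slit3 (-1.14) and Bmp4 (-1.13) the largest falls.

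**Figure D4:**
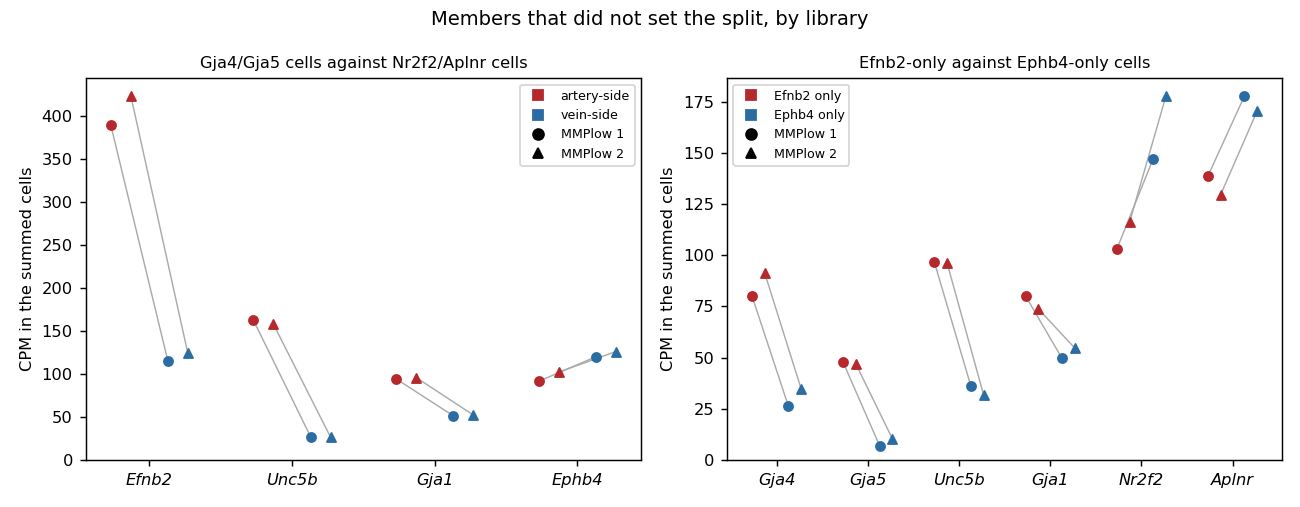
Summed level in CPM (vertical axes, from 0) of the members that did not set the split, in artery-side and vein-side cells (left) and in Efnb2-only and Ephb4-only cells (right), with MMPlow 1 as circles and MMPlow 2 as triangles and lines joining the sums of a library. Efnb2, Unc5b, Gja1, Gja4 and Gja5 are higher in the artery-side or Efnb2-only sums of both libraries, and Ephb4, Nr2f2 and Aplnr are lower.

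Over all genes detected in at least 2% of the thinned cells of both libraries, the partners most often found with each artery member were largely the genes that led the artery-like subcluster. For Gja5 these were Dkk2, Sox6 and Prdm16, with mean log2 odds ratios of 4.11, 4.06 and 3.74. For Gja4 they were Gja5 (2.56), Sox6 (2.45) and Dkk2 (2.40), for Efnb2 Gja5 (2.24), Dkk2 (2.12) and Prdm16 (1.80), and for Unc5b Abtb2 (2.15), Prdm16 (2.04) and Sox6 (2.04). Among the high partners of Gja1 were Unc5b (0.99), the second of 9127, Relb (0.97) and Igfbp3 (0.94). On the vein side, Nr2f2 was found most with Prox1 (0.95), the transcription factor of lymphatic identity, Thsd4 (0.90) and Tll1 (0.88). The highest partners of Ephb4 were Malat1 (1.22), Rasgef1b (0.90) and Egfem1 (0.79), and those of Aplnr were Ptma (1.60), Dll1 (0.68) and Prss23 (0.62). Among these high partners, MMPlow 1 and 2 differed most for Ptma (2.37 and 0.82), Dkk2 with Gja5 (3.66 and 4.56) and Malat1 (0.98 and 1.47).

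At the other end, Gm42418 was the lowest partner of all 8 members, with mean log2 odds ratios from -4.86 for Gja5 to -1.48 for Efnb2. This gene overlaps ribosomal RNA sequence. The next lowest were Nrp2 (-1.73) and Flrt2 (-1.40) for Gja4, and Fam167b (-2.17) and Osgin2 (-1.94) for Gja5. They were Bmp4 (-0.99) and Tll1 (-0.80) for Efnb2, and Kcnh1 (-1.87) and Tll1 (-1.56) for Unc5b. For Nr2f2 they were Sema3g (-1.37), an arterial semaphorin, and Prdm1 (-1.08), and for Aplnr Dkk2 (-1.40) and Gja5 (-1.25). For Ephb4 they were Rps24 (-0.91) and Adhfe1 (-0.59), and for Gja1 Rpl13 (-1.67) and Gcnt1 (-1.16). Gja5 was thus at both ends of the list, nearest to Gja4 and Efnb2 and among the farthest from Aplnr. Among the low partners named, MMPlow 1 and 2 differed most for Fam167b (-2.60 and -1.74), Rpl13 (-2.05 and -1.28) and Rps24 (-1.21 and -0.60). These ratios share cells, libraries and depth and are descriptions over 2 libraries.

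The comparison of the fractions asked how the members differ between cells of low and high mitochondrial membrane potential. Summed over all retained cells, 7 of 8 members were lower in MMPhigh, where 26.5% of all 20416 genes tested were lower and 53.7% were called in either direction. Aplnr stood at 101 and 91.3 CPM in MMPlow 1 and 2 and at 1.53 and 1.09 CPM in MMPhigh 1 and 2, a log2 change of -6.24 (SE 0.16, adjusted p by edgeR = 1.83e-07). Gja4 stood at 28.0 and 26.3 CPM against 1.34 and 1.44 (log2 change -4.25), and Gja5 at 11.1 and 11.2 CPM against 0.874 and 0.789 (-3.73). Ephb4 (-2.84), Unc5b (-2.18), Efnb2 (-1.56) and Gja1 (-1.29) fell less. Nr2f2 stood at 98.1 and 102 CPM against 104 and 108, with a log2 change of 0.12 (SE 0.08, adjusted p by edgeR = 0.240). In summed cells, fewer cells of a type and less RNA per cell cannot be told apart, and endothelial-like cells made up 48.9% and 47.4% of MMPlow and under 0.4% of MMPhigh.

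The source of the UMIs differed accordingly. Endothelial-like cells gave 64.0% and 63.3% of Nr2f2 UMIs in MMPlow but 0.977% and 0.555% in MMPhigh. Of Aplnr UMIs they gave 79.6% and 79.7% in MMPlow and still 57.1% and 71.6% in MMPhigh. Nr2f2 in MMPhigh thus came from other classes, and Aplnr remained mostly endothelial. Mesenchymal-like and neural or neural crest-like cells are types that a CD31 gate would remove, yet both were present in every library. Mesenchymal-like cells made up 11.0% and 10.2% of MMPlow and 6.52% and 12.03% of MMPhigh cells. Neural or neural crest-like cells made up 2.16% and 2.02% of MMPlow and 10.5% and 29.8% of MMPhigh cells.

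Within endothelial-like cells, 2 of 8 members, Gja5 and Unc5b, were called higher in MMPhigh, against 0.536% of 15101 genes higher and 1.32% called in either direction. Unc5b stood at 49.9 and 48.9 CPM in MMPlow and at 132 and 125 CPM in MMPhigh, a log2 change of 1.35 (SE 0.20, adjusted p by edgeR = 0.00208). Gja5 stood at 17.2 and 18.8 CPM against 33.1 and 81.7, a log2 change of 1.73 (SE 0.34, adjusted p by edgeR = 0.0157). All 8 UMIs of Gja5 in MMPhigh 1 came from 1 cell, as did all 28 in MMPhigh 2, and Unc5b came from 5 and 4 cells, so these calls rest on a handful of cells. The Gja5 call was lost without MMPlow 1 (adjusted p by edgeR = 0.117) and without MMPhigh 2 (0.670), where its log2 changes were 1.67 and 0.84.

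The other 6 members were not called in this test. Gja4 stood at 45.2 and 47.2 CPM against 49.6 and 266 (log2 change 1.88, adjusted p by edgeR = 0.442), and 66 of its 91 UMIs in MMPhigh 2 came from 1 cell. Gja1 stood at 60.0 and 61.4 CPM against 66.1 and 172 (1.04, adjusted p by edgeR = 0.0989). With the replicate number as a block, Gja4 (log2 change 1.63, adjusted p by edgeR = 9.26e-06) and Gja1 (0.93, adjusted p by edgeR = 0.0446) were called, and Gja1 was called without the low-count filter (adjusted p by edgeR = 0.000485). Without MMPhigh 1 both were called, and without MMPhigh 2 their log2 changes were 0.07 and 0.09. Efnb2 (0.40), Nr2f2 (0.39), Aplnr (0.27) and Ephb4 (0.24) had adjusted p values by edgeR of 0.340 to 0.641. The median over all genes was -0.15. Markers of lymphatic endothelium (Prox1, Reln, Nts, Lyve1 and Flt4, 5 of 5 detected in each library) summed to 175 and 192 CPM in MMPlow and 579 and 443 CPM in MMPhigh endothelial-like cells. Markers of blood classes went the other way. The 7 megakaryocyte markers summed to 381 and 374 CPM in MMPlow against 12.4 and 29.2 CPM, with 5 of 7 at 0 in each MMPhigh library, Gp9, Gp1bb and Ppbp among them. The 8 granulocyte or mast markers summed to 252 and 236 CPM against 4.13 and 2.92 CPM, with 7 of 8 at 0 in each MMPhigh library, including Mpo and Elane. The 8 macrophage markers summed to 231 and 226 CPM against 74.4 and 58.4 CPM, with 5 and 6 detected and C1qc and Adgre1 at 0 in both. The 9 haematopoietic progenitor markers summed to 181 and 158 CPM against 66.1 and 99.2 CPM (4 and 3 detected, Gfi1 at 0 in both), and the 7 erythroid markers to 176 and 142 CPM against 20.7 and 72.9 CPM (3 and 5 detected). The 9 neural or neural crest markers differed between the MMPhigh libraries, at 126 and 130 CPM against 45.5 and 417 CPM (4 and 6 detected, Sox10 at 0 in both). The part of these classes in the members' differences was not tested. Of the other artery genes, 2 of 22 tested were higher, Depp1 and Dll4, the Notch ligand of arterial cells, with 1 of 15 vein genes, Stab2, and 1 of 20 relatives, the ephrin receptor Ephb1, and none was lower. With cells chosen by a gate on markers instead of by cluster, 7 members were called and all were lower, as were 22.2% of all genes tested with that gate. It took 76 and 120 MMPhigh cells, of which 15 and 12 were endothelial-like and 23 and 61 megakaryocyte-like.

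**Figure D5:**
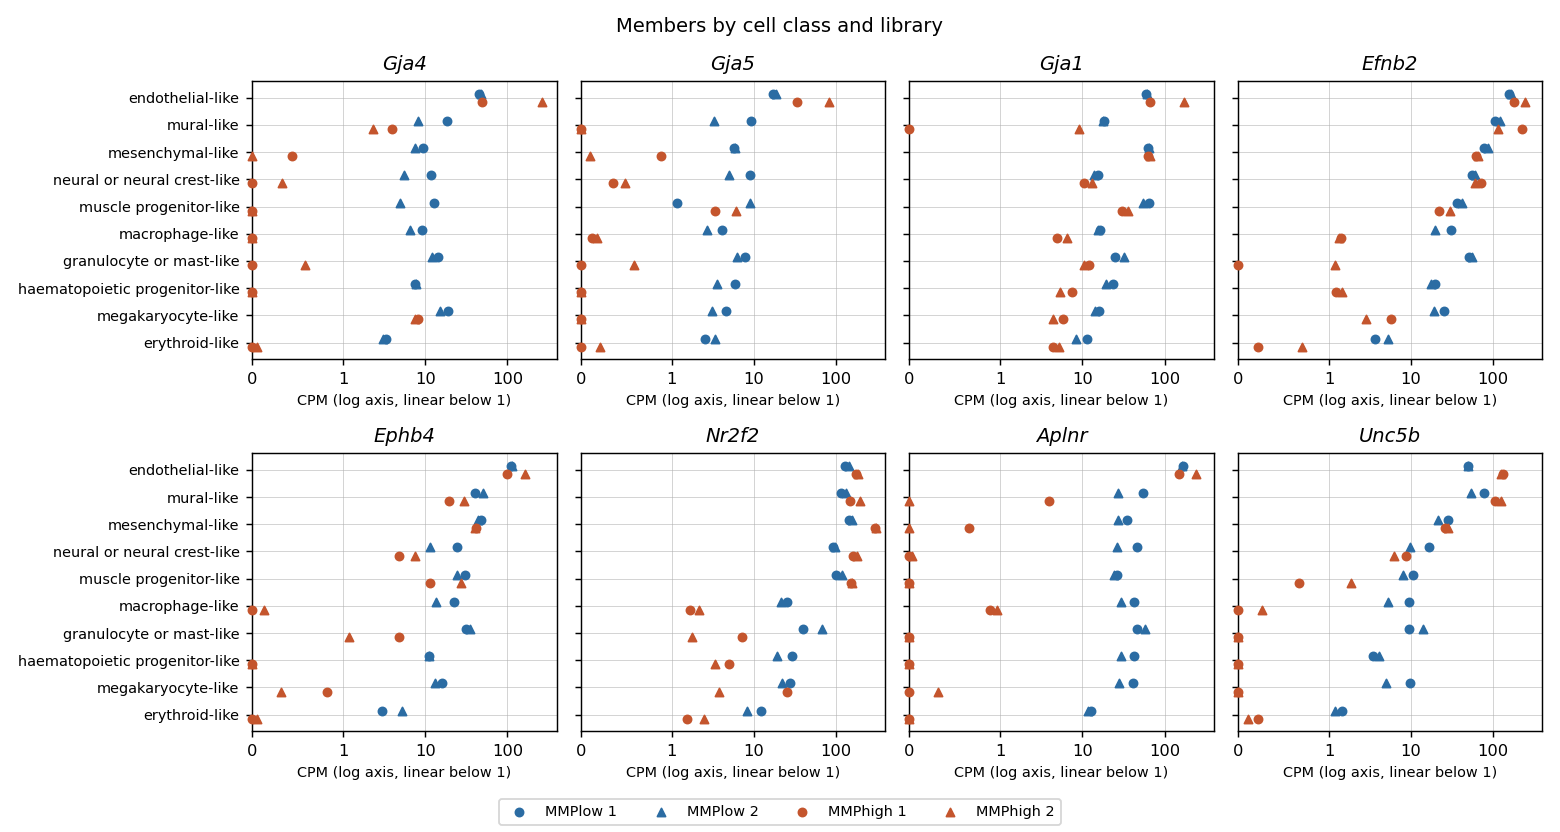
Level of each member in CPM (horizontal axis, logarithmic above 1 and linear below it) by cell class (vertical axis) and library, with MMPlow in blue and MMPhigh in orange, library 1 as circles and library 2 as triangles. Nr2f2 is higher in mesenchymal-like and neural or neural crest-like cells of MMPhigh, while Aplnr is above 100 CPM only in endothelial-like cells.

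Outside the endothelium, 8 classes could be tested and gave 43 calls among 58 member and class combinations, 41 lower and 2 higher in MMPhigh. In macrophage-like cells all 8 members were lower, as were 21.3% of all genes tested. Granulocyte or mast-like cells had 8 of 8 lower (all genes 13.7%), haematopoietic progenitor-like cells 6 of 6 tested (11.8%), erythroid-like cells 6 of 7 tested (7.13%) and megakaryocyte-like cells 5 of 7 tested (7.25%). Muscle progenitor-like cells had 1 of 6 tested lower (2.72%). Mesenchymal-like cells had 3 of 8 lower (all genes 12.3%) and 1 higher (7.90%), and neural or neural crest-like cells 4 lower (7.64%) and 1 higher (5.69%).

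Several of these counts changed when 1 library was left out or with how a class was made up. Leaving out a library leaves 1 in its group, so the spread comes from the other fraction alone. A lower count there does not show that the calls rested on the library left out. Without MMPhigh 2, granulocyte or mast-like cells had 3 lower (all genes 3.63%). Without MMPlow 2, erythroid-like cells had 2 of 4 tested lower (2.22%). Megakaryocyte-like cells had 3 lower without MMPlow 1 (1.65%) and 8 without MMPhigh 1 (10.5%). Neural or neural crest-like cells had 1 lower without MMPlow 1 (2.03%), and none of 7 tested was called by edgeR at a finer clustering (0.743%), where 4 had an unadjusted p under 0.05. Muscle progenitor-like cells had 2 lower and 1 higher when MMPhigh 1 or MMPhigh 2 was left out (3.82% and 9.45% lower, 1.52% and 11.4% higher). The macrophage-like class was made of different clusters in the fractions. Of its 1552 and 1808 MMPlow cells, 1000 and 1145 lay in cluster 12, which held 6 and 5 MMPhigh cells, and cluster 11 (133 and 55) held none. Cluster 1 held 419 and 608 MMPlow cells and 450 and 867 MMPhigh cells, nearly all of that class in MMPhigh. Within cluster 1 alone, 7 of 7 members tested were lower (all genes 12.1%). Granulocyte or mast-like cells of MMPhigh (37 and 62) all lay in cluster 0, which held 771 and 983 of the MMPlow cells, and within it 5 of 6 tested were lower (9.94%). Of the muscle progenitor-like cells, cluster 24 held 13 and 39 in MMPlow and 230 and 101 in MMPhigh, and cluster 20 the rest. These tests within 1 cluster were chosen after seeing the data.

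The sum of the 12 endothelial markers was also lower in MMPhigh in every class tested, but not always to the same extent as the members. In MMPlow macrophage-like cells the 12 endothelial markers summed to 16.1% ± 3.88 (SD, n = 2) of their endothelial level, and the members stood at 14.9% to 26.5% of theirs. In MMPhigh macrophage-like cells the marker sum was 1.62% ± 0.343 (SD, n = 2) and the members stood at 0% to 5.64%. The MMPhigh percents, here and for erythroid-like cells below, are taken against only 15 and 13 endothelial-like cells and are uncertain. The part of endothelial RNA or of mixed droplets in the members' levels in other classes was not tested. Gja4 was not detected in MMPhigh macrophage-like cells, at least 80.0-fold lower than the 7.79 CPM of MMPlow, with the limit set at 3 counts over the group. Aplnr was at 0 in MMPhigh erythroid-like cells, at least 94.0-fold lower than the 12.2 CPM of MMPlow. The marker sum of erythroid-like cells was 7.02% of its endothelial level in MMPlow and 2.28% in MMPhigh. The members there stood at 2.67% to 16.4% in MMPlow and at 0% to 4.83% in MMPhigh.

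Nr2f2 went against this direction outside the blood lineages. In mesenchymal-like cells it stood at 143 and 157 CPM in MMPlow and at 299 and 305 CPM in MMPhigh, a log2 change of 1.06 (SE 0.10, adjusted p by edgeR = 6.48e-06). In neural or neural crest-like cells it stood at 92.7 and 97.4 CPM against 161 and 181, a log2 change of 0.88 (SE 0.12, adjusted p by edgeR = 0.00178). The neural call was lost at a finer clustering, with a log2 change of 0.46 and an adjusted p by edgeR of 0.354. In MMPlow mesenchymal-like cells Nr2f2 was at 110% ± 0.503 (SD, n = 2) and Gja1 at 105% ± 1.60 (SD, n = 2) of their endothelial levels, where the endothelial marker sum was 13.2% ± 2.53 (SD, n = 2). Gja1 was not called there between the fractions, at 63.8 and 63.9 CPM against 62.2 and 67.4.

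Efnb2, Unc5b, Ephb4 and Gja4 also had levels outside the endothelium. In mesenchymal-like cells Efnb2, Ephb4 and Unc5b were not called between the fractions, with log2 changes of -0.30, -0.09 and 0.19, while Gja4, Gja5 and Aplnr fell by 5.67, 3.88 and 7.0 on the log2 scale. At resolution 0.5, 4 members were called lower in these cells instead of 3 (all genes 12.4%). Mural-like cells, which had 14 cells in each MMPhigh library and were not tested, had Unc5b at 78.1 and 53.5 CPM in MMPlow and 105 and 126 CPM in MMPhigh. Their Efnb2 stood at 107 and 122 CPM and at 226 and 115 CPM. In megakaryocyte-like cells Gja4 stood at 19.0 and 15.2 CPM in MMPlow and 8.20 and 7.46 CPM in MMPhigh (log2 change -1.0, adjusted p by edgeR = 0.0537). Gja4 was thus detected in MMPhigh megakaryocyte-like cells of both libraries, whereas Gja5 was at 0 there, at least 5.64-fold lower than the 3.82 CPM of MMPlow.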

How the data were processed

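The authors deposited 10x count matrices, whole UMI counts per gene and barcode, for 4 libraries. The submitters' processing notes name Cell Ranger 2.1.1 and mm10, and the file headers name Cell Ranger 7.0.1. Barcodes needed 2000 UMIs, 1000 genes and under 25% mitochondrial UMIs. Scrublet (scanpy 1.11.5) called 887, 1137, 0 and 78 doublets, which were removed. Its count of 0 in MMPhigh 1 is read as a failure of the caller. Cells were clustered (2000 variable genes, 30 components, 15 neighbours, Leiden resolution 1, members left out) and clusters named from fixed markers. The deposited counts were summed per class and library, with at least 20 cells (10 for endothelial-like), and tested with edgeR 4.0.16 (TMM, filterByExpr, robust quasi-likelihood F-test, two-sided, Benjamini-Hochberg adjustment over all genes, threshold 0.05). CPM were computed from these sums. Odds ratios had 0.5 added to each count, except those combined within subclusters, which were Mantel-Haenszel ratios with nothing added. Of 32285 feature IDs, 32158 matched GENCODE. Total UMIs per library were 120168395, 102083810, 51800709 and 112739406, and intervals cover counting error only. The edgeR and odds ratio steps were tested on simulated data. Alternatives were other size factors, DESeq2 1.42.0, filters, clusterings, thinning depths, doublet cuts and leaving out each library. The named genes are the members, the 3 highest and 3 lowest partners of each, the 5 largest rises and falls, and the 4 largest changes of each list, except for a gene that is not reported here. The members and lists were chosen with earlier results of these data known.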

Additional observations from a re-analysis of the deposited data

Results flagged for a closer look

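For each member called higher in MMPhigh in a class, the largest such rise was set beside its value in macrophage-like cells only. Members were listed where all MMPhigh libraries lay above all MMPlow libraries in the first class and below them in macrophage-like cells. All 8 members were called lower in macrophage-like cells, so an opposite direction was largely fixed in advance. The sum of the 12 endothelial markers was lower there too, at 16.1% of its endothelial level in MMPlow and 1.62% in MMPhigh. Gja5 had a log2 change (MMPhigh over MMPlow) of 1.73 in endothelial-like cells and of -4.03 in macrophage-like cells. Unc5b had 1.35 in endothelial-like and -4.92 in macrophage-like cells. Nr2f2 had 1.06 in mesenchymal-like and -3.3 in macrophage-like cells. The difference between the classes was not tested for any of these genes. The 2 endothelial values rest on 15 and 13 MMPhigh cells, of which 1 and 1 held all Gja5 UMIs and 5 and 4 the Unc5b UMIs. The Gja5 call was lost without MMPlow 1 (adjusted p by edgeR = 0.117) and without MMPhigh 2 (0.670). The macrophage-like cells came from different clusters in the fractions, mostly cluster 12 in MMPlow (1000 and 1145 cells, against 6 and 5 in MMPhigh) and cluster 1 in MMPhigh (450 and 867). Within cluster 1 the log2 changes of Unc5b and Nr2f2 were -4.22 and -2.89, and Gja5 was not tested there.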

How the results depend on the processing

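The 7 members called lower in sums of all cells and the 6 called in the Efnb2 and Ephb4 split kept that count in each alternative run, and the count in artery-side against vein-side cells was 3 with DESeq2 and 4 otherwise. In endothelial-like cells between the fractions 2 members were higher, as were 81 of 15101 genes. The count became 4 with a replicate block, with 84 of 15101 genes higher, and 3 without the low-count filter, with 202 of 24661. It also changed when some of the libraries were left out, in fits with 1 library in a group. With the marker gate 7 members were called, all lower, as were 3710 of 16746 genes. With that gate the log2 changes were -2.66 for Aplnr, -2.09 for Efnb2, -2.45 for Ephb4, -1.50 for Gja1, -0.60 for Gja4, -0.80 for Gja5, -1.12 for Nr2f2 and -1.26 for Unc5b. The gate takes other cells, as given above. Calls in the other classes ranged from 33 to 50 around 43, with 33 at both other resolutions, where some classes could not be fitted, and 39 with 1 cluster per class. The shares of all genes moved as well. By class, 2.72% to 21.3% were lower in the main run and 1.95% to 14.0% without the low-count filter. In neural or neural crest-like cells 0.743% were lower at resolution 2, against 7.64% in the main run.

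Artery-vein pairs negative in both libraries numbered 12, but 7 within subclusters and 8 with the stricter cell filter, the marker gate or at least 2 UMIs. They numbered 9 when thinned to 4000 UMIs, which kept 2564 and 3725 cells, and 11 without thinning or when thinned to 1000 UMIs. Same-side pairs positive in both were 9, but 8 at 4000 UMIs and 7 within subclusters. Mean log2 odds ratios that changed sign were, without thinning, 0.0171 for Efnb2 and Ephb4, 0.22 for Gja1 and Aplnr, 0.22 for Gja1 and Ephb4, and 0.0584 for Gja1 and Nr2f2. With at least 2 UMIs they were 0.13, 0.48, 0.27 and 0.30 for these pairs and 0.16 for Gja1 and Gja5. At 4000 UMIs they were 0.12 for Efnb2 and Ephb4, 0.62 for Gja1 and Gja5, and 0.33 for Gja5 and Ephb4. Others were 0.0949 for Efnb2 and Ephb4 with the gate, 0.0665 for Gja1 and Gja5 with another thinning seed, and 0.24 for Gja5 and Nr2f2 within subclusters. The cause was not tested. The subclusters, the single clusters and the removal of the top 15% of doublet scores were chosen after seeing the data, and the last could not be fitted for endothelial-like cells of MMPhigh. Of the other values, 1050 member changes stayed on their side of the threshold, where a change of sign among values not called is not counted, as for Aplnr (0.27 against -0.17) and Ephb4 (0.24 against -0.22) in endothelial-like cells without MMPhigh 2. Among the rest, 18 gained a call, 35 lost it, and 8 changed sign with a call in at least 1 run. A further 273 pair values moved by less than the SD between libraries, 132 moved by at least that with the same sign, and 15 changed sign. The vein-vein means, 0.15 to 0.27, were 0.47 to 0.85 without thinning and 0.93 to 1.42 with at least 2 UMIs.

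Over all genes the calls ranged from 48 to 6813 around 199 in endothelial-like cells, 963 to 4081 around 3389 between sides and 279 to 2176 around 1514 in the Efnb2 and Ephb4 split. In other classes they ranged from 325 to 2091 around 1342 (erythroid), 831 to 3328 around 2912 (granulocyte or mast), 590 to 3461 around 2391 (progenitor), 2771 to 6489 around 5686 (macrophage), 240 to 2202 around 1361 (megakaryocyte), 1339 to 3704 around 3019 (mesenchymal), 139 to 2286 around 317 (muscle) and 121 to 3100 around 1870 (neural).

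The libraries share the numbers 1 and 2, which the labels do not tie to a batch. Same-numbered libraries deviated together with correlations from -0.0558 to 0.320, 0.0368 in endothelial-like cells, over 2 pairs. The replicate block gave 4 members higher in endothelial-like cells (84 of 15101 genes higher) and 7 lower in all cells (5381 of 20416 genes lower). It gave 45 calls in the other classes, where 3.25% to 20.6% of all genes were lower by class.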
